A study of Homo sapiens with 8 samples.

Results

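ENOSF1, TTI1, METTL5, ORAI2, STAU1, SERBP1, ABCC5 and ARMC9 are 8 human genes named in earlier work as carrying an alternative acceptor (3′ splice site) that cells with a hotspot substitution in SF3B1 use more. They were taken by name, as 8 of 35664 genes with an annotated intron, and their splice junctions were found by matching the deposited junctions to the introns and splice sites of GENCODE release 29. Together they had 483 of the 860791 junctions of the series. At each donor (5′ splice site) the annotated acceptor with the most reads in the wild-type day 4 libraries was the reference. An acceptor 1 to 50 nt upstream of it was called near-upstream, and 33 of 23440 such junctions belonged to the 8 genes. Of the 33, 20 had at least 5 unique reads over all libraries and 13 had fewer. For each gene the near-upstream acceptor with the most reads is described in full. An upstream acceptor that WT cells already used most is the reference under this rule and not near-upstream. SERBP1 had such a pair of acceptors, described after the values were seen.

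The data were strand-specific total RNA sequencing of K562, an established human erythroleukaemia cell line. The groups were SF3B1 K700E day 4, wild type (WT) day 4, K700E day 8 and WT day 8, with 2 libraries each and 8 in all. In every group, WT included, expression of the modified allele was induced with doxycycline at 1 ug/ml, so the inducer is shared. Clone, zygosity and separate cultures are not stated in the labels, so the spread between the libraries of a group may be technical and the p-values measure only that spread.

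SF3B1 is the subunit of the SF3b complex, in the U2 snRNP, that clamps the branch point before an acceptor is chosen. K700E is a hotspot substitution known from myelodysplastic syndromes, and it is known for the use of cryptic acceptors that lie a short way upstream of the usual one and follow a short or adenine-rich tract. A transcript spliced there keeps a few extra bases at the start of the exon. Where these break the reading frame, nonsense-mediated decay can remove the transcript.

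The bases added by the near-upstream acceptor are shown here because they set what each transcript gains. They come from GENCODE release 29 transcripts on GRCh38 that include them, which covered 5 of the 8 genes. Each run reads 5′ to 3′ on the gene's strand. Capitals mark the bases between the near-upstream and the reference acceptor, and lower case marks the exon after the reference acceptor. For SERBP1 the last 30 of the 45 added bases are given.
ENOSF1: AGTCTCTTTTTGCAGatgatggatgccaac
METTL5: GTGGCTTTTGTTTTACAGaacttcgatatg
ORAI2: CGTTTCTCTGAATTCTCCCCAAGggaagga
STAU1: TCTTTCCCTCTGAAACAGgtggcccgggag
SERBP1: CATTCAGAAACAAATATCTTATAATTACAG

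All 5 stretches ended in AG, the last bases of the intron at the reference acceptor. Pyrimidines made up 66.7% of the added bases in ENOSF1, 61.1% in METTL5, 69.6% in ORAI2, 66.7% in STAU1 and 46.7% in SERBP1. For METTL5, ORAI2 and SERBP1 other transcripts also cover the last 20 intron bases before the near-upstream acceptor, whose own AG is in capitals.
METTL5 before the acceptor: aaatacaattttatccttAG
ORAI2 before the acceptor: agctaacctacggattgcAG
SERBP1 before the acceptor: ctttttctttctttccttAG

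The distance between the acceptors was 15 nt in ENOSF1 and ABCC5, 17 nt in TTI1, 18 nt in METTL5 and STAU1, 23 nt in ORAI2, 26 nt in ARMC9 and 45 nt in SERBP1, with a median of 18 nt. It was a multiple of 3 in 5 of the 8 genes, all but TTI1, ORAI2 and ARMC9. In coding transcripts the addition was read in frame without a stop codon in ENOSF1 (5 codons), METTL5 (6 codons), STAU1 (6 codons) and SERBP1 (15 codons). The ORAI2 acceptor lies in the 5′ untranslated region of its coding transcripts. The near-upstream acceptor was itself annotated in 5 of the 8 genes, in 1 transcript of ENOSF1, METTL5 and ORAI2 and in 3 transcripts of STAU1 and SERBP1. The acceptors of TTI1, ABCC5 and ARMC9 were not in release 29.

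The libraries held 49338071 to 77750812 uniquely mapped junction reads. The SF3B1 gene itself did not pass the test at day 4 (log2 change 0.03, adjusted p = 0.922, edgeR), and the K700E base itself is not seen in junction counts. Unannotated junctions seen by 1 read made up 3.84% and 5.49% of the unannotated junctions in WT day 8 replicates 1 and 2, against 25.9% to 37.9% in the other 6 libraries. The cause was not tested. A count of 0 at an unannotated acceptor in a WT day 8 library may therefore not compare with a 0 elsewhere. One label calls the cells epithelial. The summed level of 9 erythroid markers was 940.2 to 2091 CPM (junction reads scaled to a common library total) over the 8 libraries. That of 6 epithelial markers was 448 to 2648, and that of the 4 lymphoid markers with junction reads 0.747 to 7.86. The epithelial sum was above the erythroid sum only in K700E day 8 replicate 2 (2648 and 1423 CPM). At day 4 the sum of 6 megakaryocyte markers was 113 and 118 CPM in K700E and 11.0 and 20.1 in WT libraries, carried by ITGA2B and THBS1 with PF4 and GP1BA at 0 to 8 reads. Of the 6 megakaryocyte genes 3 were tested at day 4 and 1 was called higher in K700E, against 0.229% of all genes (edgeR). The part of this day 4 difference in the results below was not tested. At day 8 the megakaryocyte sum was 38.1 and 523 CPM in the libraries labelled K700E and 97.5 and 75.6 in those labelled WT.

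The day 8 libraries did not follow their genotype labels at these acceptors. The groups overlapped in all 8 genes, where 13.4% of 6167 near-upstream acceptors with comparable reads were wholly higher and 5.17% wholly lower in K700E. Replicate 2 of both labels had high use and replicate 1 of both labels had low use in every one of the 8 genes but SERBP1, where the other pair of acceptors had the same split. Day 8 values are therefore given library by library under the labels as deposited, and the day 4 libraries were tested alone.

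**Figure D1:**
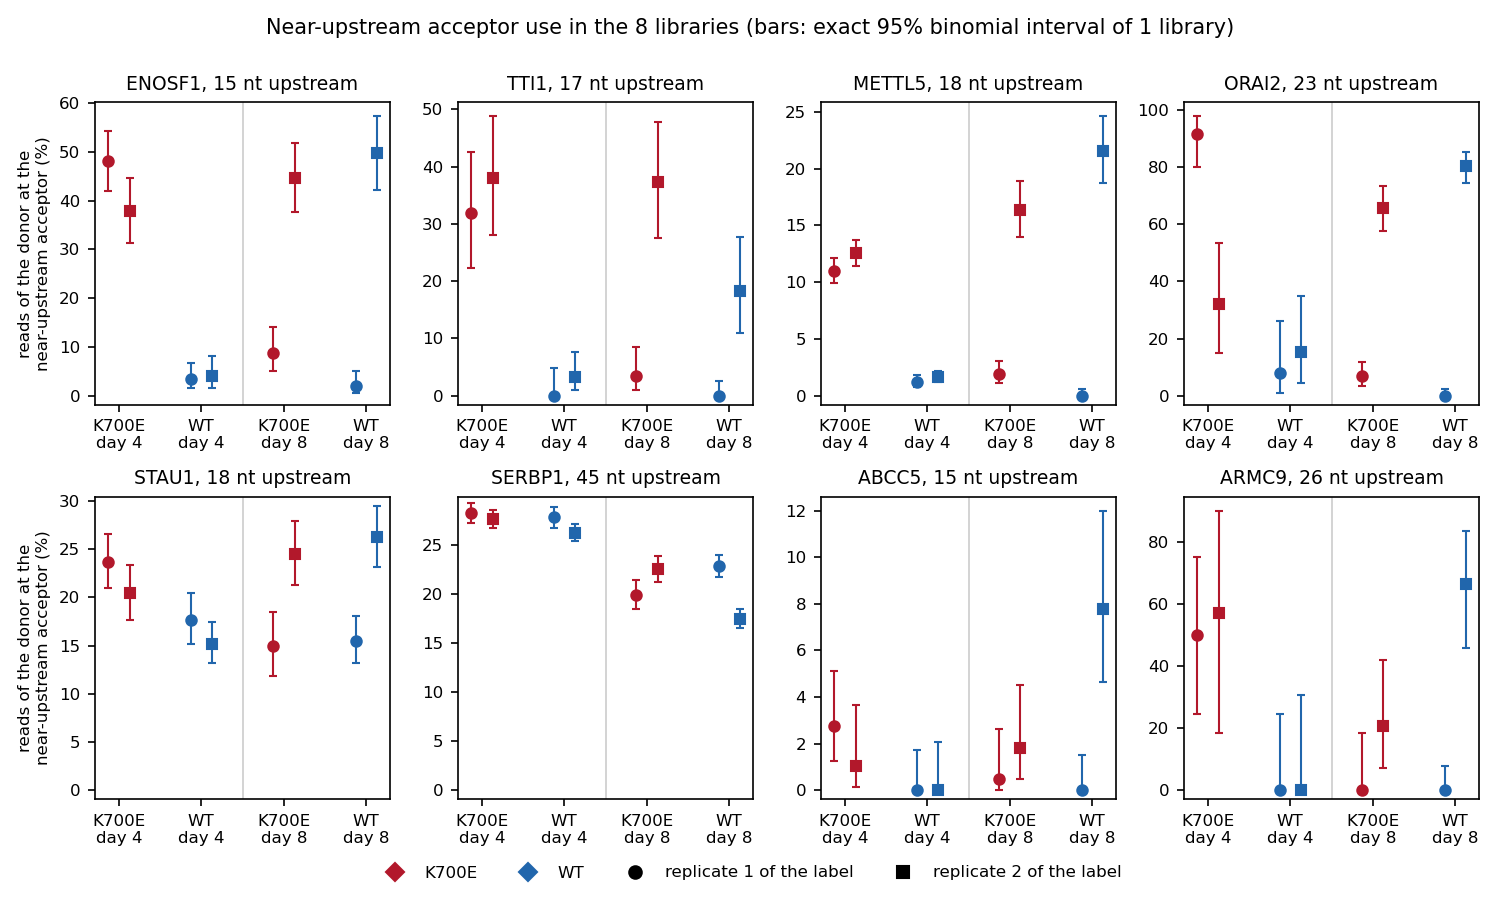
Use of the near-upstream acceptor (y axis, % of the unique reads of its donor) in each of the 8 libraries, for each gene; points are libraries (circle, replicate 1; square, replicate 2) and bars are exact 95% binomial intervals, which cover counting error only. At day 4 both K700E libraries are above both WT libraries in 7 of the 8 genes, and at day 8 the groups overlap in all 8.

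At day 4 the near-upstream acceptor was called higher in K700E than in WT cells in 3 of the 8 genes: ENOSF1, TTI1 and METTL5. Use of the acceptor averaged 43.0% ± 7.26 in K700E and 3.73% ± 0.380 in WT cells for ENOSF1, 34.9% ± 4.40 in K700E and 1.66% ± 2.34 in WT cells for TTI1, and 11.8% ± 1.10 in K700E and 1.45% ± 0.321 in WT cells for METTL5 (SD, n = 2 libraries each). A call needed an adjusted p under 0.05 in edgeR's differential usage test, which sets a junction against the other junctions of its donor, and a mean difference of 5 percentage points or more. Over the 70418 junctions tested 0.46% were called, 0.352% higher in K700E, and among the 2472 near-upstream acceptors 6.11% were called, 6.03% higher and 0.0809% lower. Of the other 5 genes, ORAI2, STAU1 and SERBP1 were tested and not called. ABCC5 and ARMC9 did not reach 5 reads in 2 of the day 4 libraries and were not tested. Both K700E libraries lay above both WT libraries in 7 of the 8 genes, where 34.1% of 5919 near-upstream acceptors with comparable reads did so and 12.4% lay wholly below. This is not a like comparison, because each gene stands for its acceptor with the most reads and the share has no such choice. In ABCC5 and ARMC9 all day 4 reads of the acceptor came from K700E libraries, so only that direction was possible. The TTI1 and ORAI2 acceptors, with 0 and 5 and with 2 and 4 WT reads, met the read minimum only through K700E libraries.

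ENOSF1, a mitochondrial enzyme of the enolase superfamily that acts on sugar acids, had its near-upstream acceptor at position 683396 of chromosome 18 (hg38, minus strand, donor 685920), 15 nt upstream of the reference at 683381. It took 128 of 266 and 81 of 214 reads of the donor in the K700E libraries at day 4, or 48.1% (95% exact binomial interval 42.0% to 54.3%) and 37.9% (31.3% to 44.7%). In WT libraries it took 8 of 231 and 7 of 175 reads, or 3.46% (1.51% to 6.71%) and 4.00% (1.62% to 8.07%). The genotypes were far apart at this acceptor, with a change of 39.3 percentage points (adjusted p = 0.00216, edgeR). Without WT replicate 1 or WT replicate 2 the call was lost (adjusted p = 0.164 and 0.187), with a change of 39.0 and 39.5 points; here and below, a fit that leaves 1 library in a genotype takes the spread from the other genotype. Reads of the junction itself, in CPM after TMM scaling as for all day 4 junction levels below, were 1.40 ± 0.265 CPM in K700E and 0.118 ± 0.0238 in WT cells, a log2 change of 3.56 (SE 0.45, adjusted p = 0.0116; 0.101 and 0.118 without WT replicate 1 and 2). Across all junctions tested in this way, 1.97% were called, 0.851% higher and 1.12% lower. The reference junction had 138 and 133 reads in K700E and 220 and 168 in WT libraries, and its log2 change of -0.72 did not pass (SE 0.28, adjusted p = 0.205).

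At day 8 the ENOSF1 acceptor took 8.77% (4.99% to 14.1%) and 44.6% (37.7% to 51.7%) of the donor in the libraries labelled K700E, against 2.01% (0.550% to 5.07%) and 49.7% (42.2% to 57.3%) in those labelled WT. The replicate 2 libraries were thus as high as the K700E libraries of day 4 under either label. Other near-upstream acceptors of ENOSF1 were minor: the pair 28 nt upstream of other reference acceptors had 0 to 12 reads in any library.

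TTI1, a scaffold of the complex that stabilises the kinases related to phosphatidylinositol 3-kinase such as mTOR and ATM, used an unannotated acceptor at position 38002794 of chromosome 20 (minus strand, donor 38006196), 17 nt upstream of the reference at 38002777. It took 28 of 88 and 35 of 92 reads in the K700E libraries at day 4, or 31.8% (22.3% to 42.6%) and 38.0% (28.1% to 48.8%). In WT libraries it took 0 of 75 reads, which allows a use of up to 4.00%, and 5 of 151, or 3.31% (1.08% to 7.56%). The groups did not overlap. The acceptor met the minimum of 5 reads in 2 libraries only through the K700E libraries. Its change was 33.3 percentage points (adjusted p = 0.0413, edgeR). This call was not made with limma (adjusted p = 0.266), and it was lost on leaving out any 1 library (adjusted p = 0.156 to 0.420), with a change of 30.2 to 36.4 points.

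The TTI1 reference junction had 53 and 55 reads in K700E and 74 and 139 in WT libraries at day 4. In CPM these were 0.742 ± 0.118 in K700E and 1.63 ± 0.539 in WT cells, a log2 change of -1.14 that did not pass (SE 0.36, adjusted p = 0.136, edgeR). The near-upstream junction's own log2 change was 3.45 (SE 0.94) and did not pass either (adjusted p = 0.101; log2 change 2.55 and 7.91 without WT replicate 1 and 2), at 0.437 ± 0.125 CPM in K700E and 0.0361 ± 0.0511 in WT cells. At day 8 the acceptor took 3.39% (0.931% to 8.45%) and 37.2% (27.5% to 47.8%) in the libraries labelled K700E. It took 0 of 142 reads, which allows up to 2.11%, and 18.3% (11.0% to 27.6%) in those labelled WT.

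METTL5, the methyltransferase that modifies an adenosine of the small ribosomal subunit RNA, had its acceptor at position 169812525 of chromosome 2 (minus strand, donor 169815476), 18 nt upstream of the reference at 169812507. This donor was deep, and the acceptor took 336 of 3058 and 392 of 3124 reads in the K700E libraries at day 4, or 11.0% (9.90% to 12.1%) and 12.5% (11.4% to 13.8%). In WT libraries it took 22 of 1802 and 49 of 2926 reads, or 1.22% (0.767% to 1.84%) and 1.67% (1.24% to 2.21%). The change was 10.3 percentage points (adjusted p = 0.000302, edgeR), and this call too was lost without either WT library (adjusted p = 0.0856 without replicate 1 and 0.104 without replicate 2), while the change was 9.54 to 11.1 points over the libraries left out. It was the smallest change in points and the smallest adjusted p of the 3 called acceptors.

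In absolute reads the METTL5 near-upstream junction was called higher, at 5.03 ± 1.21 CPM in K700E and 0.540 ± 0.239 in WT cells, a log2 change of 3.20 (SE 0.35, adjusted p = 0.00744, edgeR; 0.0796 and 0.0502 without WT replicate 1 and 2). The reference junction had 2689 and 2719 reads in K700E and 1772 and 2865 in WT libraries, with ranges that overlapped in CPM (37.1 ± 5.24 in K700E and 35.6 ± 8.17 in WT cells). Its log2 change was 0.06 (SE 0.19, adjusted p = 0.909). At day 8 the acceptor took 1.88% (1.08% to 3.04%) and 16.4% (14.0% to 18.9%) in the libraries labelled K700E, against 0 of 583 reads (up to 0.515%) and 21.6% (18.8% to 24.6%) in those labelled WT. Another METTL5 acceptor, 12 nt upstream of the reference of donor 169824781 and chosen after its values were seen, was highest in WT day 8 replicate 1. At day 8 it had 4 and 8 reads in the libraries labelled K700E and 31 and 9 in those labelled WT, or 1.61% and 2.25% of the donor under the K700E label and 7.29% and 1.57% under the WT label.

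**Figure D2:**
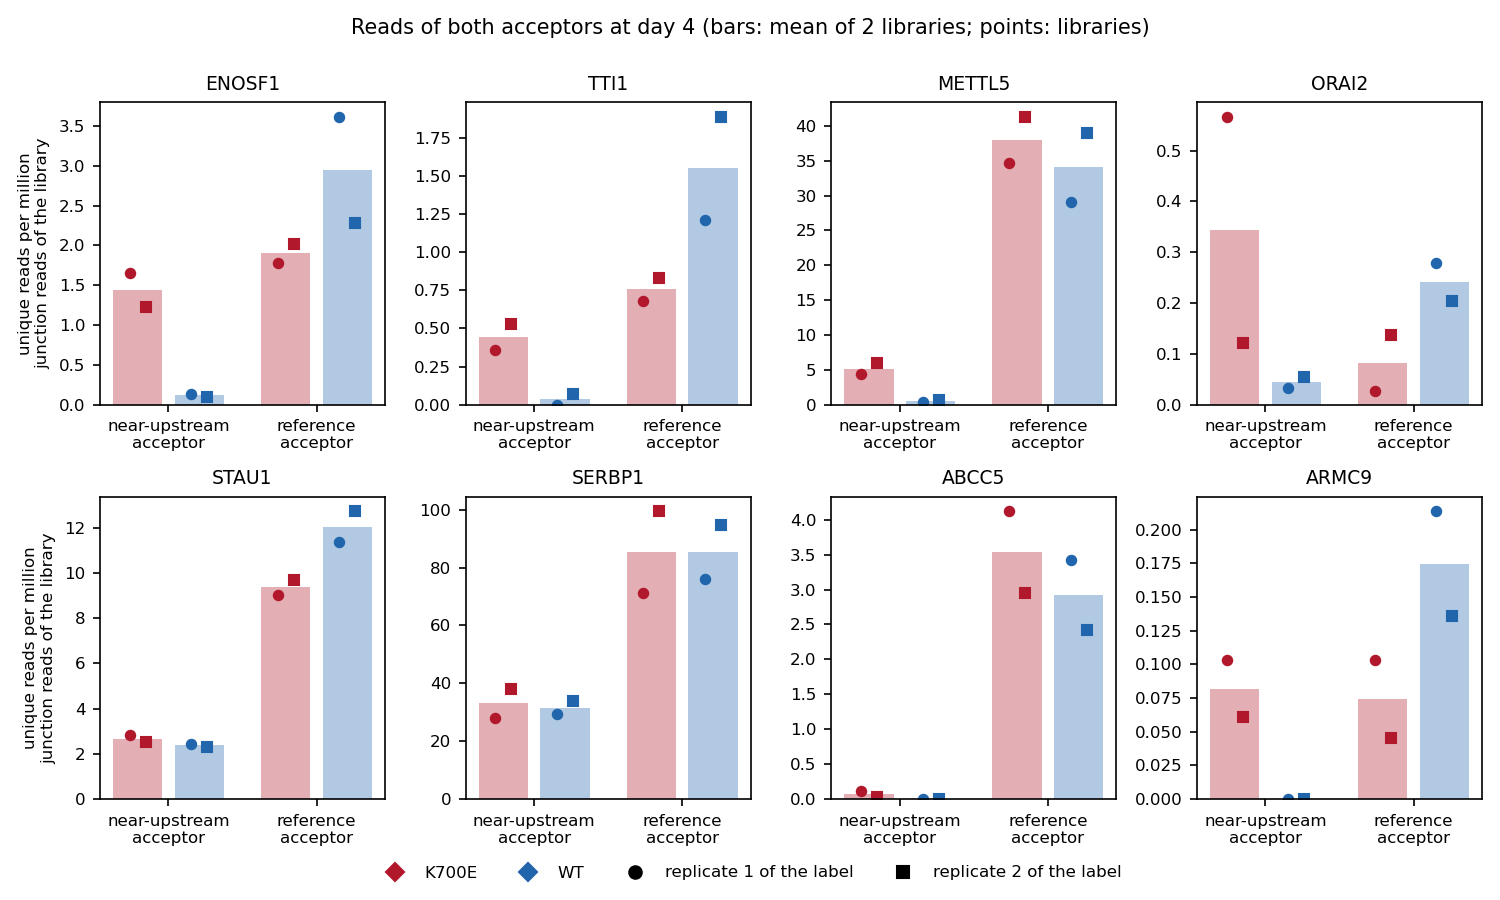
Unique reads in CPM of the library's junction reads (y axis, a linear scale of its own in each panel) at the near-upstream and the reference acceptor at day 4; bars are means of 2 libraries and points are libraries. In ENOSF1 the near-upstream bar is high and the reference bar is lower in K700E than in WT cells, while in METTL5 the near-upstream bar is higher and the reference points of both genotypes overlap.

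ORAI2, a pore subunit of store-operated calcium channels, had the largest use in single libraries and few reads at day 4. Its acceptor at position 102436201 of chromosome 7 (plus strand, donor 102433662) took 44 of 48 and 8 of 25 reads in K700E libraries, or 91.7% (80.0% to 97.7%) and 32.0% (14.9% to 53.5%). In WT libraries it took 2 of 25 and 4 of 26 reads, or 8.00% (0.984% to 26.0%) and 15.4% (4.36% to 34.9%). The K700E libraries lay above the WT libraries and lay far apart from each other. The change of 50.1 percentage points did not pass (adjusted p = 0.489, edgeR).

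The ORAI2 donor was read more deeply at day 8, and there the split by replicate number was widest. The acceptor took 11 of 162 reads and 100 of 152 reads in the libraries labelled K700E, or 6.79% (3.44% to 11.8%) and 65.8% (57.7% to 73.3%). It took 0 of 149 reads (up to 2.01%) and 183 of 228 reads, or 80.3% (74.5% to 85.2%), in those labelled WT. The reference junction had 2 and 9 reads in K700E and 17 and 15 in WT libraries at day 4, a log2 change of -1.67 that did not pass (SE 0.85, adjusted p = 0.324, edgeR) and ran between -3.25 and -0.89 over the libraries left out.

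STAU1, a double-stranded RNA-binding protein of mRNA transport and decay, used its near-upstream acceptor in WT cells too. The acceptor at position 49124606 of chromosome 20 (minus strand, donor 49135832) took 220 of 928 and 165 of 809 reads in K700E libraries at day 4, or 23.7% (21.0% to 26.6%) and 20.4% (17.7% to 23.3%). It took 149 of 844 and 170 of 1118 reads in WT libraries, or 17.7% (15.1% to 20.4%) and 15.2% (13.1% to 17.4%). The ranges did not overlap, and the change of 5.62 percentage points did not pass (adjusted p = 1.00, edgeR). At day 8 the values were 15.0% (11.9% to 18.5%) and 24.5% (21.3% to 28.0%) in the libraries labelled K700E, against 15.5% (13.2% to 18.0%) and 26.3% (23.2% to 29.5%) in those labelled WT. In CPM the near-upstream junction stood at 2.60 ± 0.181 in K700E and 2.49 ± 0.0382 in WT cells at day 4. The reference junction stood at 9.15 ± 0.615 in K700E and 12.6 ± 1.30 in WT cells, a log2 change of -0.46 that did not pass (SE 0.17, adjusted p = 0.184).

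SERBP1, an RNA-binding protein that sits on inactive ribosomes, had the highest near-upstream read numbers, at an acceptor where the genotypes were not apart. This annotated acceptor at position 67424323 of chromosome 1 (minus strand, donor 67424887) took 2185 of 7726 and 2510 of 9057 reads in K700E libraries at day 4, or 28.3% (27.3% to 29.3%) and 27.7% (26.8% to 28.6%). It took 1784 of 6405 and 2490 of 9463 reads in WT libraries, or 27.9% (26.8% to 28.97%) and 26.3% (25.4% to 27.2%), a change of 0.914 percentage points (adjusted p = 1.00, edgeR). At day 8 it took 19.96% (18.5% to 21.4%) and 22.6% (21.3% to 23.9%) in the libraries labelled K700E, against 22.9% (21.8% to 24.0%) and 17.5% (16.5% to 18.5%) in those labelled WT, so it did not share the split by replicate number.

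At another donor of SERBP1, position 67425082, both K700E libraries of day 4 used the upstream one of 2 annotated acceptors more than both WT libraries. The pair lies 18 nt apart, at 67424978 and 67424960, and the WT libraries of day 4 used both about equally. At day 4 the upstream acceptor took 5138 of 6427 and 5665 of 7289 reads in K700E libraries, or 79.9% (78.9% to 80.9%) and 77.7% (76.7% to 78.7%). It took 2952 of 5637 and 3934 of 7555 reads in WT libraries, or 52.4% (51.1% to 53.7%) and 52.1% (50.9% to 53.2%). The genotypes were far apart, and the distance between the acceptors is a multiple of 3.

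The downstream acceptor of this pair took 21.1% ± 1.49 in K700E and 47.5% ± 0.126 in WT cells (SD, n = 2 libraries each), a change of -26.4 points that missed the threshold (adjusted p = 0.0586, edgeR). Limma called it (adjusted p = 0.00253), as did edgeR with no TMM factors (0.0489) and with a minimum of 10 reads (0.0459) or 1 read (0.00174). Without WT replicate 1 or 2 it was not called (0.559 and 0.809). The change of 26.6 points at the upstream acceptor did not pass in edgeR (adjusted p = 0.629) and was called by limma (adjusted p = 0.00189). Reads of the downstream junction were called lower, at 20.1 ± 5.82 CPM in K700E and 48.5 ± 4.90 in WT cells, a log2 change of -1.27 (SE 0.21, adjusted p = 0.0280, edgeR; 0.150 and 0.223 without WT replicate 1 and 2). Those of the upstream junction were 74.4 ± 15.0 CPM in K700E and 53.3 ± 5.03 in WT cells and did not pass (log2 change 0.48, adjusted p = 0.187). The upstream acceptor at day 8 took 48.7% and 75.0% in the libraries labelled K700E, against 51.9% and 80.1% in those labelled WT, high in replicate 2 of both labels.

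SERBP1 also had an unannotated acceptor at position 67426304 (donor 67429987), 18 nt upstream of its reference and chosen for description after its values were seen. This one had 10 and 11 reads in K700E and 2 and 0 in WT libraries at day 4, at most 0.529% of the donor, and did not pass (adjusted p = 0.440). At day 8 it had 0 and 20 reads in the libraries labelled K700E and 0 and 6 in those labelled WT.

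ABCC5, an exporter of cyclic nucleotides and organic anions, had few near-upstream reads. Its acceptor at position 183927459 of chromosome 3 (minus strand, donor 183928746) took 9 of 329 and 2 of 196 reads in K700E libraries at day 4, or 2.74% (1.26% to 5.13%) and 1.02% (0.124% to 3.64%). No read was seen among 210 and 178 in WT libraries, which allows up to 1.43% and 1.69%. At day 8 it had 1 of 211 and 4 of 223 reads in the libraries labelled K700E and 0 of 245 and 18 of 232 in those labelled WT. A further ABCC5 acceptor, 17 nt upstream of another reference, had 9 reads in WT day 8 replicate 2, or 8.41% of its donor, and none in the other 7 libraries.

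ARMC9, a protein of the ciliary base, was read thinly and unevenly. Its unannotated acceptor at position 231344948 of chromosome 2 (plus strand, donor 231331898) took 8 of 16 and 4 of 7 reads in K700E libraries at day 4, or 50% (24.7% to 75.3%) and 57.1% (18.4% to 90.1%). It had 0 of 13 and 0 of 10 reads in WT libraries, which allows up to 23.1% and 30%. At day 8 it had 0 of 18 and 5 of 24 reads in the libraries labelled K700E and 0 of 45 and 18 of 27 in those labelled WT. The high libraries were again replicate 2 of each label.

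One other junction of the 8 genes was called at day 4, and it was lower in K700E cells. It joins an ABCC5 donor at position 183987769 to an acceptor at 183984895 that lies 1887 nt upstream of the reference. It had 1 of 276 and 1 of 178 reads in K700E libraries and 8 of 149 and 17 of 165 in WT libraries, or 0.362% and 0.562% in K700E and 5.37% and 10.3% in WT libraries. The change was -7.37 percentage points (adjusted p = 0.0439, edgeR), where 0.108% of all junctions tested were called lower. It was not called with limma (adjusted p = 0.420) or without K700E replicate 1 or 2 (adjusted p = 0.279 and 0.440, edgeR), and it did not pass the read minimum without a WT library. At day 8 it had 3 and 0 reads in the libraries labelled K700E and none in those labelled WT. In all, 77 junctions of the 8 genes were tested at day 4, of which 4 were called, against 0.46% of all junctions tested. An unadjusted p under 0.05 was seen in 13 of the 77, against 6.97% of all junctions tested (edgeR). These 13 are not separate results, because several share a donor and so divide the same reads. The genes were also chosen as reported targets with earlier results of these data known.

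Under the labels as deposited, 0 of 85 junctions of these genes were called at day 8, and 2 had an unadjusted p under 0.05 (edgeR). Over all 63775 junctions tested at day 8, 0.0% were called and 1781 had an unadjusted p under 0.05. The test of the difference between the days, on all 8 libraries, called 0 of the 109 junctions of the 8 genes and 0.0% of 95636 in all, with 11 of the 109 and 5657 of all at an unadjusted p under 0.05. For ENOSF1 that test gave an adjusted p of 0.728 and for METTL5 0.787 (edgeR). Leaving out either library of either day 8 label gave no call at day 8.

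A list of 22 other genes reported as hotspot targets gave a scale for these changes. Of them 20 had a near-upstream read, 16 were tested at day 4, 12 were called higher (4 and 3 without WT replicate 1 and 2) and none lower, with a median change of 31.4 percentage points over the 16. Among the 2472 near-upstream acceptors tested, 6.03% were called higher and 0.0809% lower. This is not a like comparison, because each gene stands for its acceptor with the most reads over the 8 libraries. The list was also chosen with earlier results of these data known. The largest called changes were those of the citric acid cycle gene DLST (63.9 points), SEPSECS, which makes selenocysteinyl-tRNA (60.5), and TMEM14C, a haem-pathway transporter (53.9). Of these, SEPSECS lost its call without WT replicate 1 or 2, at a change of 60.5 points. It could not be tested without either K700E library. Its acceptor had 0 of 134 and 0 of 93 reads in WT libraries, so only the higher direction was possible. KANSL3 (0 and 2 WT reads), ZDHHC16 (1 and 4), DPH5 (2 and 6) and GCC2 (4 and 13) were called too. These also met the read minimum only through K700E libraries. The largest that were not called were PPOX at 22.4 (adjusted p = 0.855; 13.0 to 31.8 points over the libraries left out), BRD9 at 3.47 (adjusted p = 0.114) and ANKHD1 at 1.58 (adjusted p = 0.0559, edgeR). The changes of ENOSF1 and TTI1 lay within the range of the 12 called ones, and that of METTL5 lay near its lower end.

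**Figure D3:**
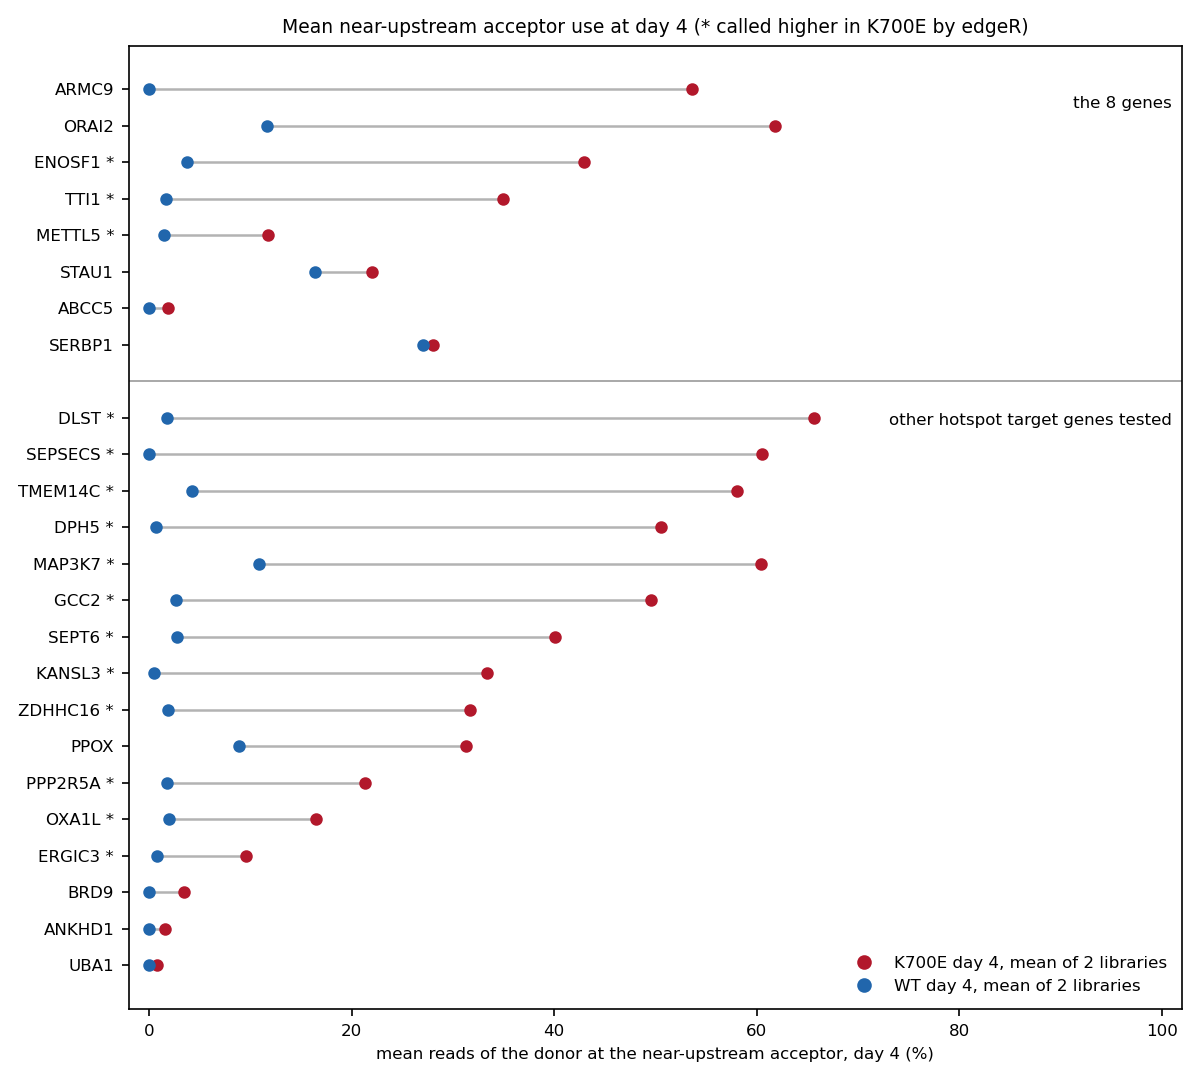
Mean use of the near-upstream acceptor at day 4 (x axis, % of the reads of its donor; means of 2 libraries) in K700E and WT cells, for the 8 genes and for the 16 other hotspot target genes tested; a star marks a call. ENOSF1, TTI1 and METTL5 are called among the 8, at changes of 39.3, 33.3 and 10.3 percentage points, and the SERBP1 acceptor drawn, the one 45 nt upstream of its reference, shows the least distance between the genotypes among the 8.

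Gene sums, the unique reads over all annotated introns of a gene, were not called by edgeR for any of the 8 genes; DESeq2 called TTI1 at day 4. At day 4 the edgeR test called 0.529% of 13991 genes (0.3% lower) and 0 of these 8, of which 1, TTI1, had an unadjusted p under 0.05, as did 21.3% of all genes tested. Their log2 changes ran between -0.81 and 0.34 with a median of -0.0048, against 0.016 for all genes tested, and 4 were positive and 4 negative. At day 8 none of the 13990 genes was called (0.0%; 408 at an unadjusted p under 0.05), and DESeq2 called 20. In bulk RNA, fewer molecules per cell and fewer cells that make the transcript cannot be told apart.

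ENOSF1 gene sums were 54.0 ± 0.906 CPM in K700E and 51.7 ± 4.24 in WT cells at day 4, a log2 change of 0.06 (SE 0.14, adjusted p = 0.831, edgeR). METTL5 gene sums were 256 ± 27.7 in K700E and 209 ± 41.8 in WT cells (log2 change 0.29, SE 0.18, adjusted p = 0.406). In both genes the libraries of the genotypes overlapped while the acceptor use did not. TTI1 was the only one of the 3 genes with a called acceptor whose sum was lower, at 6.50 and 7.53 CPM in K700E and 11.0 and 13.6 in WT libraries. Its log2 change was -0.81 and did not pass (SE 0.23, adjusted p = 0.144, edgeR). DESeq2 called it (adjusted p = 0.0260), as did edgeR without K700E replicate 2 (adjusted p = 0.0476), a fit with 1 K700E library that called 1255 genes in all, against 74. The unannotated near-upstream junction of TTI1 is not part of its sum, while those of ENOSF1 and METTL5 are annotated and counted. Without the junctions of this donor, the TTI1 sum was 6.10 ± 0.505 CPM in K700E and 9.68 ± 1.00 in WT cells, without TMM scaling. The cause of the lower sum was not tested.

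Among the genes whose acceptor was not called, ORAI2 gene sums were 1.84 ± 0.230 CPM in K700E and 2.47 ± 0.442 in WT cells at day 4 (log2 change -0.42, adjusted p = 0.511, edgeR). STAU1 gene sums were 119 ± 3.52 in K700E and 146 ± 7.89 in WT cells (log2 change -0.29, adjusted p = 0.254). In these, as in TTI1, both K700E libraries lay below both WT libraries, which was so in 27.3% of all genes tested, with 27.5% wholly higher. SERBP1 (log2 change -0.07), ABCC5 (0.06) and ARMC9 (0.34) overlapped between the genotypes and did not pass (adjusted p = 0.599 to 0.867). At day 8 the TTI1 sums were 18.9 and 11.0 in the libraries labelled K700E and 14.7 and 10.9 in those labelled WT, lower in replicate 2 of both labels. The day 8 libraries labelled K700E lay wholly below those labelled WT in ENOSF1, STAU1 and SERBP1 (14.9% of all genes tested) and wholly above in METTL5, ABCC5 and ARMC9 (17.0%), and none passed or had an unadjusted p under 0.05.

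**Figure D4:**
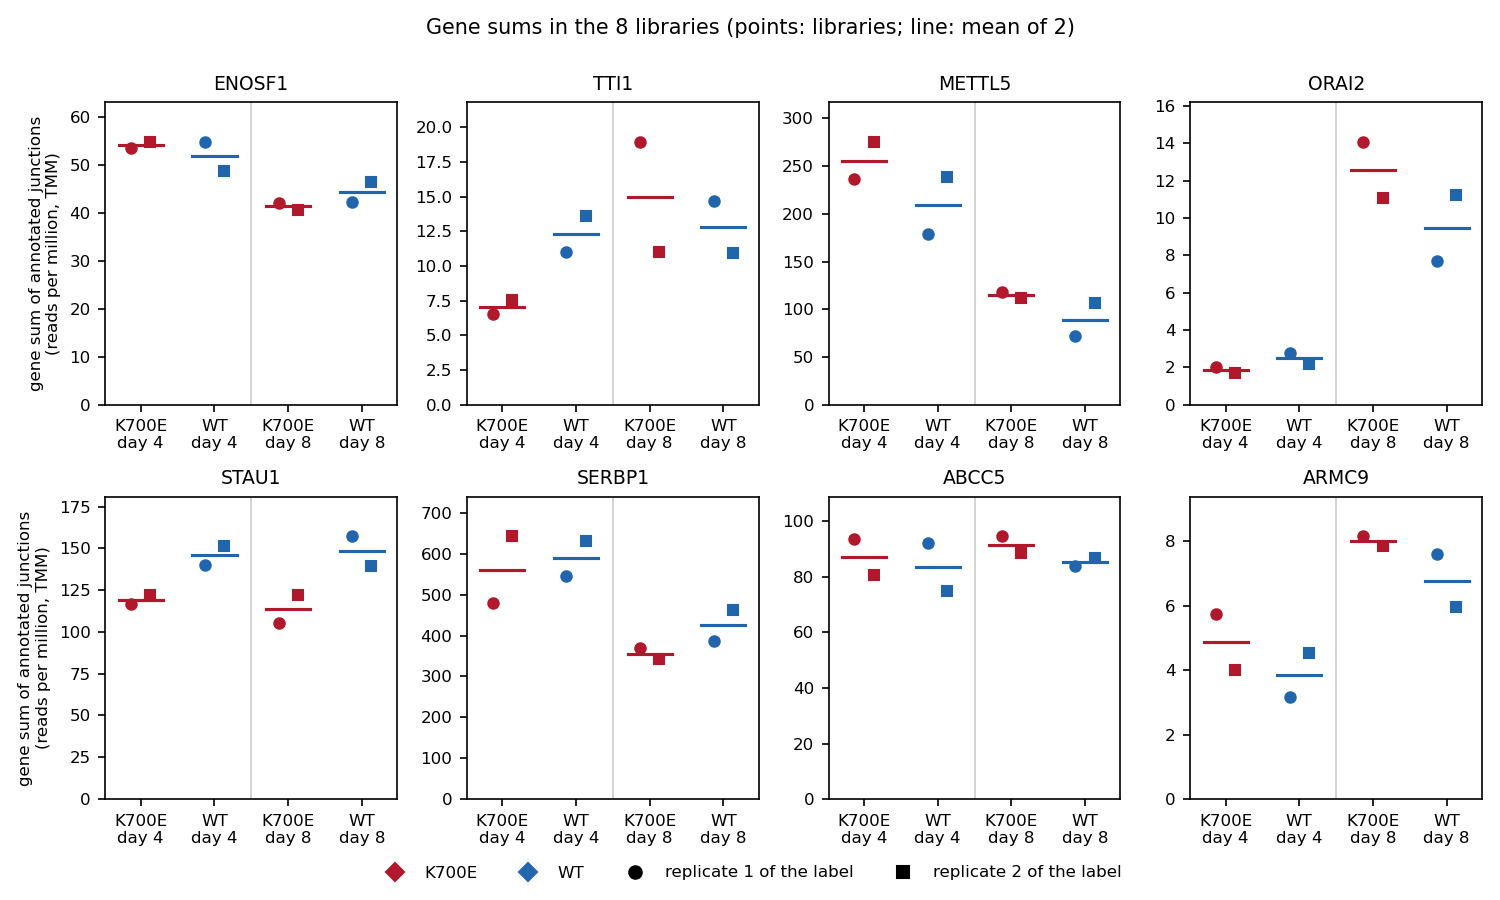
Gene sums over annotated introns (y axis, CPM after TMM scaling within each day) in the 8 libraries; points are libraries and lines are means of 2. At day 4 the K700E libraries lie below the WT libraries in TTI1, ORAI2 and STAU1, and edgeR called none of the 8 genes at either day, while DESeq2 called TTI1 at day 4.

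Genes of branch point and acceptor recognition, a list that holds the subunits of SF3b and SF3a and their partners, were measured beside the 8 targets. Of 16 genes 15 were tested and 0 were called at either day by edgeR, with 4 at an unadjusted p under 0.05 at day 4, against 21.3% of all genes, and 0 at day 8. Their median log2 change at day 4 was 0.13. SUGP1, a G-patch partner of SF3B1 chosen for mention after its value was seen, had a log2 change of 0.93 that did not pass (adjusted p = 0.0651, edgeR), while DESeq2 called it (adjusted p = 1.89e-06). The edgeR fits without K700E replicate 1 or 2 called it too (adjusted p = 0.00508 and 0.00282), but these have 1 K700E library and called 2536 and 1255 genes in all, and the fits without a WT library called 0. Among the 22 other hotspot targets, 21 gene sums were tested at day 4 and 0 were called, against 0.529% of all genes (edgeR). Of the 21, 4 had a positive and 17 a negative log2 change, with a median of -0.20, against 0.016 for all genes. The share of all genes with a negative change was not counted. An unadjusted p under 0.05 was seen in 8 (edgeR), against 21.3% of all genes. The 8 include CRNDE, which was higher (log2 change 0.90).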

How the data were processed

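Total RNA of 8 K562 libraries was sequenced. The submitters' processing notes name cutadapt, STAR and hg38. Per the file headers the aligner was STAR 2.7.0e, run end to end in 1 pass with GENCODE releases 29 and 22. The deposited values are raw counts per junction, for unique and for multi-mapped reads separately. The deposited strand codes placed junctions in genes, and motif codes and overhangs were not used.

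Unique counts were used; multi-mapped reads were 2.69% to 3.17% of junction reads. Acceptor use is a junction's share of the reads of its donor, and positions are 1-based, an acceptor being the last intron base. Binomial intervals are exact (Clopper-Pearson, 95%), and a count of 0 was read as up to 3 reads; both cover counting error only. Use was tested with edgeR 4.0.16 (glmQLFit, diffSpliceDGE) where a junction had 5 reads in 2 libraries and its donor 2 such junctions and a mean of 20 reads. Gene sums cover introns of 1 gene; introns of 2 or more genes carried 4.17% of reads and were left out. Gene sums and single junctions were tested with edgeR's quasi-likelihood test after TMM scaling. P-values were adjusted by Benjamini-Hochberg over all features tested.

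Alternatives were limma 3.58.1, DESeq2 1.42.0, other scalings and filters, all 8 libraries in 1 model, a replicate block and leaving out libraries. The genes, the lists and the separate day 4 fit were chosen with earlier results of these data known. The text describes each gene's near-upstream acceptor with the most reads over the 8 libraries every other junction called at day 4 and, added after the data were seen, the SERBP1 pair, and at most 6 other targets by size of change; 1 further gene of that list is not reported here. The tests of acceptor use and of gene sums were first tested on simulated data drawn from the day 4 libraries. The test of use recovered 11% of near-upstream acceptors changed 4-fold and 76% of those changed 16-fold. Recovery here means a call, which also needs a change of 5 percentage points, and the starting levels were means over both genotypes. The test of gene sums recovered 66% of genes changed 4-fold. A result that did not pass can therefore hide a change of such size.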

Additional observations from a re-analysis of the deposited data

How the results depend on the processing

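ENOSF1 and METTL5 kept their calls at day 4 under limma, other filters and scalings, multi-mapped reads and the replicate block. They lost them without either WT library (adjusted p = 0.164 and 0.187 for ENOSF1, 0.0856 and 0.104 for METTL5, edgeR) and in the model of all 8 libraries. Replicates of the 2 genotypes share only a number, and the deviations of same-numbered libraries from their group means correlated over genes at 0.101 at day 4 and 0.271 at day 8. With the replicate block TTI1 was not called (adjusted p = 0.0575, edgeR), 121 near-upstream acceptors and 245 junctions were called, and called genes numbered 126 and single junctions 8023. The genes called higher among the 8 numbered 0 in the model of all 8 libraries and 0 to 2 on leaving out a library; the other targets numbered 0 and 3 to 9.

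Over all junctions, calls of use at day 4 numbered 523 with no minimum change, 0 in the model of all 8 libraries and 8 to 110 without 1 library, against 324. Near-upstream calls numbered 65 with limma, 231, 0 and 4 to 41 in the same order, against 151. Tests between the days gave 0 to 38 calls, 0 to 19 of them near-upstream, with 38 and 19 without WT day 8 replicate 1 and 3 without WT day 8 replicate 2. Called gene sums at day 4 numbered 1640 with DESeq2, 1567 without a filter, 0 in the model of all 8 libraries and 0 to 2536 without 1 library, against 74; DESeq2 called 20 at day 8. Called single junctions numbered 7294 with DESeq2 and 118 to 21944 without 1 library, against 3085. TTI1 was the 1 gene of the 8 whose sum was called by DESeq2, and without K700E replicate 2 (adjusted p = 0.0476, edgeR).

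Signs that turned on leaving out a library were all of log2 changes that did not pass. Over the libraries left out, the gene sum ranged between -0.019 and 0.14 in ENOSF1, -0.30 and 0.12 in SERBP1, and -0.083 and 0.21 in ABCC5. The reference reads ranged between -0.18 and 0.31 in METTL5, -0.38 and 0.14 in SERBP1, and -0.061 and 0.41 in ABCC5. The near-upstream reads ranged between -0.29 and 0.19 in SERBP1, and -0.0067 and 0.14 in STAU1. The causes were not tested. ORAI2 could not be tested without either K700E library or with a minimum of 10 reads. ABCC5's junction called lower was not called with the replicate block (adjusted p = 0.157, edgeR) or with a minimum of 1 read (0.483). The downstream acceptor of the SERBP1 pair was called with the replicate block (adjusted p = 0.0195, edgeR). Depth limits ARMC9 and ORAI2, with 7 to 48 donor reads at day 4.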
